A study of Mus musculus with 5 samples.

Results

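The 8 chemokine receptor genes described here, Cxcr3, Cxcr4, Cxcr5, Cxcr6, Ccr2, Ccr7, Ccr8 and Ccr9, are followed through the immune cells of mouse thyroids, cluster by cluster and library by library. They were taken by name from the 18767 genes of the deposited count table, and all 8 are in it. The cells were live CD45+ cells sorted from the thyroids of male and female NOD mice, a strain prone to autoimmune diabetes and thyroiditis. Mice of the checkpoint inhibition group (ICI) received an anti-PD-1 antibody, clone RPM1-14, and an anti-CTLA-4 antibody, clone 9D9, at 10 mg/kg per dose. Mice of the isotype group received the control antibodies 2A3 and MPC11, whose dose is not given in the sources used here. Both groups were treated by injection into the abdominal cavity for 4 weeks, starting at 4 to 6 weeks of age. Cells of 16 ICI mice were pooled in 4 libraries, and cells of 10 isotype mice in 1 library, and which mice went into which library is not given in the sources used here.

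Chemokine receptors are G protein-coupled receptors that steer immune cells along gradients of secreted chemokines. CCR7 reads CCL19 and CCL21 and keeps naive T cells, B cells and mature dendritic cells moving through lymph nodes, while CXCR5 reads CXCL13 and leads B cells and follicular helper T cells into B cell follicles. CXCR4 reads CXCL12 and holds many leukocytes and their precursors in marrow and lymphoid tissue. CCR9 reads CCL25, a chemokine of the thymus and small intestine, and is carried by developing T cells. CXCR3 (ligands CXCL9 and CXCL10) and CXCR6 (ligand CXCL16) are carried by effector and tissue-resident T cells and natural killer cells. CCR2 reads CCL2 and brings in monocytes and some lymphocytes, and CCR8, whose ligands include CCL1, is carried by regulatory T cells of tissues and by type 2 lymphoid cells.

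The genes of 5 of the 8 receptors lie on mouse chromosome 9. In GRCm38 (GENCODE M21), Ccr9 spans 123678439 to 123784330 on the forward strand, Cxcr6 begins 22.145 kb past its end and spans 123806475 to 123811760, and Ccr2 spans 124101950 to 124113557. Between Cxcr6 and Ccr2 lie 290.19 kb that hold the receptor genes Xcr1, Ccr1 and Ccr3. Ccr8 (120092114 to 120094906) and Cxcr5 (44511787 to 44561877) lie elsewhere on chromosome 9, and Cxcr3, Cxcr4 and Ccr7 lie on chromosomes X, 1 and 11. Ccr9 was high in other libraries than Cxcr6 and Ccr2, which lie in the same stretch of chromosome 9, so the promoters of Ccr9, Cxcr6 and Ccr2 and of Cxcr3, which was high in the same libraries as Cxcr6, are shown. Each sequence is the RefSeq promoter of GRCm38.p6, from upstream of the transcript start to just past it, written 5′ to 3′ on the gene's strand. The positions are chr9:123766961-123767260 (forward) for Ccr9, chr9:123806227-123806526 (forward) for Cxcr6, chr9:124101933-124102232 (forward) for Ccr2 and chrX:101734098-101734397 (reverse) for Cxcr3. Capitals mark matches to the RUNX core TGTGGT or its reverse complement ACCACA.
Ccr9: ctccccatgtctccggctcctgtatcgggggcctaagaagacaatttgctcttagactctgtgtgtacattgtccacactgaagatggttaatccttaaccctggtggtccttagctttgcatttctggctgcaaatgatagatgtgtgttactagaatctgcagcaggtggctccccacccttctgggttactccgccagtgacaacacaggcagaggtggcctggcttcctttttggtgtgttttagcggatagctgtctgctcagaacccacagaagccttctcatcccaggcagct
Cxcr6: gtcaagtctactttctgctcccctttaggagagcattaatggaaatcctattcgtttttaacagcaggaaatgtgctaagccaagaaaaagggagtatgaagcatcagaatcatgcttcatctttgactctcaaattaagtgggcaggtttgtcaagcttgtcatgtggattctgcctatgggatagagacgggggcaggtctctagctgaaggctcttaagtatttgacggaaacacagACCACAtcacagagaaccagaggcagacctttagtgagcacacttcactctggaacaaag
Ccr2: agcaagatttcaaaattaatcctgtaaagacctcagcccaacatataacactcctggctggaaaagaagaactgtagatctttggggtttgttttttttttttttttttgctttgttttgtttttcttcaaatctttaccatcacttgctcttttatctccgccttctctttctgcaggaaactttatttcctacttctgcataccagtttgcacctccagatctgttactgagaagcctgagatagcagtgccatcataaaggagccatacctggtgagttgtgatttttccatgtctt
Cxcr3: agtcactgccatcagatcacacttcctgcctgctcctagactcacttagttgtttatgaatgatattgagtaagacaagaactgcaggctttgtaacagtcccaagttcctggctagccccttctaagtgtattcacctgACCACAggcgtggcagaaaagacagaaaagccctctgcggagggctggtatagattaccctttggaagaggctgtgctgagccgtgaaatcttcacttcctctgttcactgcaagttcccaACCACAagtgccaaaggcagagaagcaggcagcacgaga

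The Cxcr3 promoter held 2 RUNX matches, 110 bases before and 11 bases after the start, and the Cxcr6 promoter held 1, 10 bases before it. The promoters of Ccr9 and Ccr2 held none, nor did those of Cxcr4 and Ccr8, and 16.8% of 32851 mouse promoters of this length held at least 1 on either strand. The T-box letters TCACACC, or GGTGTGA on the other strand, were in none of these 6 promoters and in 3.98% of all promoters. These are letter matches and not measured binding. Some of the receptor genes share transcribed sequence with others, since Cxcr6 lies within Fyco1, Ccr9 overlaps Lztfl1 and Slc6a20a, and Cxcr5 overlaps Bcl9l, each on the opposite strand, and whether counting used strand is not given in the sources used here. Fyco1 stood at 53.3, 59.9, 51.1 and 20.4 CPM in ICI libraries 1 to 4, against 18.4 CPM in the isotype library, and Lztfl1 at 70.9, 56.2, 47.7 and 52.4 CPM, against 100.9 CPM. CPM is UMIs (molecule tags) of the gene per 1000000 UMIs of the library. The part of these overlapping genes in the Cxcr6, Ccr9 and Cxcr5 counts was not tested.

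ICI libraries 1 to 4 contain 1523, 1219, 1163 and 5018 cells, against 1352 isotype cells, where the labels give 1688, 1234, 1178 and 5018 cells, against 1352. Depth was 3858251 to 32296759 UMIs in the ICI libraries and 8130081 UMIs in the isotype library. ICI libraries 2 and 3 shared 140 cell barcodes, and every other pair shared 12 or fewer. Their titles end in m1a and m1b, and that of ICI library 1 ends in m1, while ICI library 4 is titled ICI_nov21 and isotype ISO. Whether libraries 2 and 3 are separate samples is not given in the sources used here, and each value with n = 4 counts them as 2. When each library was prepared is not given either, so preparation cannot be told apart from treatment or library. With 166 cells of shared barcodes left out, no receptor passed the tests that follow. ICI library 4 held cells under 2 barcode suffixes, whose receptor shares lay close together (Ccr7 in 62.8 and 64.0% of cells). The authors' 17 clusters were named here from lists of marker genes. The thymocyte list holds 10 genes of developing T cells such as Dntt and Rag1. Of these, only Satb1 was among the 10 leading genes of cluster 2, and none was among those of cluster 11. Of the 10 thymocyte list genes, 8 were at least 1.5-fold higher in cluster 11 than in other cells, and 8 in the cycling-like cluster 5. In the unnamed cluster 15, 5 were, against 4 in cluster 2. Cluster 2 held 7.75, 1.64, 1.81 and 11.9% of the cells of ICI libraries 1 to 4, against 18.7% of isotype cells, cluster 5 held 4.14, 1.48, 2.15 and 10.9%, against 11.3%, and cluster 11 held 1.38, 0.164, 0.086 and 3.09%, against 12.4%. The labels do not say that the ICI libraries came from separate mice, so p-values measure only the spread between the libraries, which may be technical.

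Over all cells the ICI libraries differed among themselves. ICI libraries 2 and 3 were rich in Cxcr3, Cxcr6 and Ccr2, and ICI library 4 was rich in Ccr7 and Cxcr4. Library 1 lay between them for Cxcr3, Cxcr6, Ccr2 and Ccr7 and was the lowest for Cxcr4. Cxcr3 had a UMI in 23.4, 49.5, 51.5 and 8.61% of cells in ICI libraries 1 to 4, against 5.47% in the isotype library. All 4 ICI libraries lay above isotype, with library 4 the nearest to it. Cxcr6 was detected in 35.9, 76.0, 75.4 and 12.3% of cells in the ICI libraries, against 16.2% in isotype. Here library 4 fell below isotype while the other ICI libraries lay above it. Ccr2 followed the same order, with 17.3, 46.3, 46.8 and 8.33% in the ICI libraries, against 16.6% in isotype. The lymph node receptor Ccr7 ran the other way, with 30.8, 2.63, 3.44 and 63.4% in the ICI libraries, against 34.4% in isotype, so that isotype lay between ICI library 4 and the other ICI libraries. Cxcr4 was in 2.63, 6.15, 5.76 and 22.0% of cells, against 16.6%, with only ICI library 4 above isotype. Ccr9 was below isotype in every ICI library, with 9.26, 2.38, 2.32 and 30.4% of cells, against 52.2%. Ccr8 was detected in 12.2, 11.9, 13.8 and 18.3%, against 12.4%. The B cell follicle receptor Cxcr5 was rare everywhere, with 1.84, 0.33 and 2.13% of cells in ICI libraries 1, 2 and 4 and 0 of 1163 cells in library 3, against 0.96% in isotype. At least 1 of the 8 receptors was detected in 78.4, 86.6, 85.7 and 91.5% of ICI cells, against 88.6% of isotype cells. In such sums over mixed cells, fewer cells of a type and less RNA per cell cannot be told apart.

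**Figure D1:**
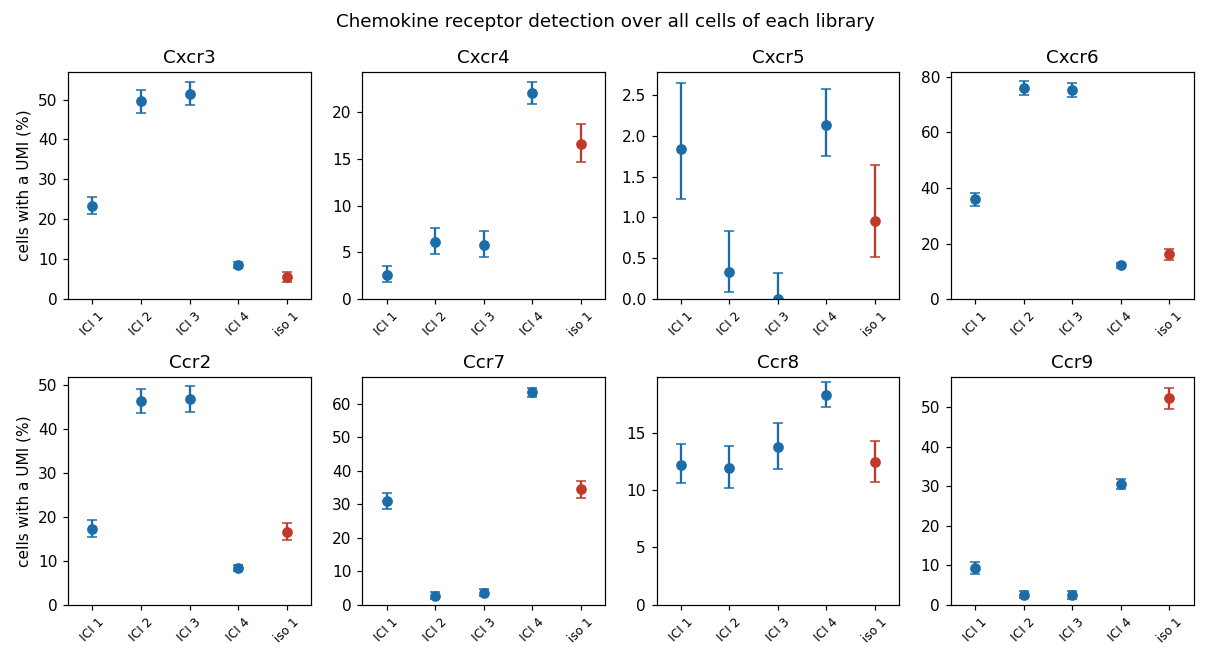
Share of all cells with at least 1 UMI of each receptor (y axis, %) in the 4 ICI libraries (blue) and the isotype library (red, iso 1). Bars are exact 95% intervals that cover counting error only; Ccr9 sits at 30.4% or lower in the ICI libraries and at 52.2% in isotype, and Cxcr6 reaches 76.0% in ICI library 2.

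Counts summed per library were tested with edgeR's quasi-likelihood test over 12659 genes with Benjamini-Hochberg adjustment. None of the 8 receptors passed at an adjusted p of 0.05, and neither did any other gene (percent called 0 in each direction); 516 genes (4.08%), none of them a receptor of this set, had an unadjusted p under 0.05. Cxcr3 had 167.0, 374.5, 365.7 and 27.8 CPM in the ICI libraries, against 15.3 CPM in isotype, a log2 fold change of 3.82 (SE 1.61, edgeR adjusted p = 0.817). Ccr8 had 80.1 ± 7.29 CPM in the ICI libraries (SD, n = 4), against 50.2 CPM in isotype, a log2 fold change of 0.57 (SE 0.25, edgeR adjusted p = 0.817). Ccr9 had 55.7 ± 52.4 CPM in the ICI libraries (SD, n = 4), against 295.0 CPM in isotype, a log2 fold change of -2.47 (SE 1.16, edgeR adjusted p = 0.817). These 3 were the receptors whose CPM lay on one side of isotype in every ICI library, where 27.3% of all tested genes lay above in every ICI library and 19.1% below. The log2 fold changes of the other 5 were 3.26 (SE 1.94) for Cxcr6, 1.45 (SE 1.31) for Ccr2, 1.11 (SE 1.90) for Cxcr5, -0.56 (SE 0.78) for Cxcr4 and -0.45 (SE 1.91) for Ccr7. With thymocyte-like and cycling-like clusters left out, Ccr9 kept a log2 fold change of -2.64 and Ccr8 had 0.14. With 1 isotype library, its spread is assumed to equal that of the ICI libraries.

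Receptors divided the clusters by cell kind. Since the clusters were made from these genes among others, the following levels are a description with no test. Cxcr6 was highest in cluster 6, whose markers are gamma-delta and type 17 T cell genes such as Trdc and Il17a. There it was detected in 96.7, 100, 98.8 and 67.7% of cells in ICI libraries 1 to 4, against 68.7% in isotype. Its level was 2441 ± 1318 CPM over the ICI libraries (SD, n = 4), against 817 CPM in isotype. Shares of 43.1 to 94.1% in the ICI libraries marked the effector T-like cluster 1, the natural killer-like cluster 8 and the type 2 innate lymphoid-like cluster 10. The ranges of these clusters in CPM overlapped, so their order is not set. In the macrophage-like cluster 7, where the gene is not looked for, 7.69, 5.52, 5.56 and 4.44% of ICI cells had a UMI of it, against 7.75% of isotype cells, at median depths of 3403, 3403, 3471.5, 8726 and 9932 UMIs per cell. Cluster 6 had median depths of 3190, 3063, 4142 and 5498 UMIs, against 4459 UMIs. Cluster 6 was therefore rich in Cxcr6 in every library, at a share far above that of macrophage-like cells. The 10 gamma-delta or type 17 genes that describe cluster 6 summed to 10201, 11575, 10890 and 2424 CPM in the ICI libraries, against 3143 CPM in isotype. Its cells were thus not alike in these markers between libraries, which also bears on the levels of other receptors in cluster 6.

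Ccr2, the receptor for CCL2, also led in cluster 6. It was in 75.4, 84.8, 87.0 and 72.6% of its ICI cells, against 58.2% of its isotype cells. In the conventional dendritic-like cluster 16, 53.5% of the 43 cells of ICI library 4 had a Ccr2 UMI, against 85.7% of 28 isotype cells. Cluster 2 was named from 10 thymocyte genes, of which only 3 were detected in it in ICI libraries 2 and 3. With median depths of 571 to 3104 UMIs, its Ccr2 share was 3.39, 20, 0 and 0.17% in the ICI libraries, against 0.40% in isotype. The highest share rests on 4 of 20 cells in ICI library 2.

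Cxcr3 was highest by share in the effector T-like cluster 1, whose leading genes are Gzmk, encoding a granzyme, and the chemokine gene Ccl5. It was in 55.9, 76.4, 81.1 and 43.3% of ICI cells, against 37.8% of isotype cells. Cxcr3 is itself among the 10 leading genes of cluster 1. The natural killer-like cluster 8 followed with 40.5, 64.2, 77.7 and 26.3%, against 25.0%. By mean CPM the unnamed cluster 13 came first (753 ± 653 CPM, n = 3), but it held 1112 and 1147 CPM in ICI libraries 2 and 3 and 0 in library 4. The macrophage-like share of Cxcr3 was 0 to 12.5% in the ICI libraries, against 5.43% in isotype.

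Ccr8 led in another cluster than Cxcr3, Cxcr6 and Ccr2, though over clusters it ran in part with Cxcr6 (Pearson's r = 0.53). Its share was highest in cluster 10, named from type 2 innate lymphoid genes, with 51.2, 68.3, 80.4 and 64.2% of ICI cells, against 65.0% of isotype cells. At 512 ± 117 CPM over the ICI libraries (SD, n = 4), against 508 CPM in isotype, cluster 10 lay above the range of the next cluster. The regulatory T-like cluster 4 had 18.1, 18.8, 20 and 46.6%, against 14.3%, and cluster 12, unnamed, had 36.7 and 46.5% in the 2 ICI libraries with at least 20 cells, against 43.2%. In the B-like cluster 14, 1.64 and 4.11% of the cells of ICI libraries 1 and 4 had a Ccr8 UMI, and 0 of 16 isotype cells did, which allows a share of up to 18.8%.

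Ccr9 was highest in cluster 11, which like cluster 2 was named from thymocyte genes. In cluster 11 it was in 61.9 and 75.5% of the cells of ICI libraries 1 and 4, against 76.2% of isotype cells. In cluster 2 it was in 28.8, 0, 9.52 and 76.1% of ICI cells, against 87.4% of isotype cells, and Ccr9 is one of the leading genes of that cluster. ICI library 4 and isotype were thus near each other in both clusters, while ICI libraries 2 and 3 held 20 and 21 cells of cluster 2 with few Ccr9 UMIs. In those cells of ICI libraries 2 and 3, only 3 of the 10 thymocyte genes were detected.

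Ccr7 led in cluster 12 by mean CPM, in cluster 9 by share of cells and in cluster 4 with ICI cells pooled. Cluster 9 rests on the 422 cells of ICI library 4, since each other ICI library held 2. Clusters 0 and 3 and the B-like cluster 14 were also rich in Ccr7, but clusters 0 and 3 were not so in ICI libraries 2 and 3. In cluster 3, where it is a leading gene, 75.0, 12, 11.8 and 97.3% of ICI cells had a Ccr7 UMI, against 96.5% of isotype cells. In the regulatory T-like cluster 4 the share was 33.1, 2.08, 2.22 and 79.4%, against 64.3%. In the natural killer-like cluster 8, which should lack the gene, it was 11.9, 1.05, 0 and 17.4%, against 9.21%, at median depths of 1211, 2717, 3568.5 and 5554 UMIs, against 4351.5 UMIs. These cluster 8 shares are not a plain background of single UMIs. The 29 positive cells of ICI library 4 held 170 UMIs, and the 7 of isotype held 23 UMIs, with at least 2 in each. In cluster 4, the shares of ICI libraries 2 and 3 lay within a few percentage points of those of their own cluster 8 cells. The cluster 4 shares of ICI libraries 1 and 4 and of isotype lay far above those of their cluster 8 cells.

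Cxcr5 had its highest level in the B-like cluster 14. There it was in 18.03 and 53.4% of the cells of ICI libraries 1 and 4, the 2 with at least 20 such cells, against 37.5% of 16 isotype cells. Its 131 ± 41.6 CPM there (SD, n = 2) lay above the range of the next cluster, cluster 4, with 18.4 ± 13.3 CPM (SD, n = 4). Cluster 14 held 38.2 and 44.4% of the Cxcr5 UMIs of ICI libraries 1 and 4, against 46.2% of those of isotype, so over all cells the gene was not limited to it. In ICI library 4, the regulatory T-like cluster 4 held 40.2% of the Cxcr5-positive cells and cluster 14 held 36.4%. In macrophage-like cells it was in none of the 104, 181, 162 and 45 cells of the ICI libraries, against 1 of 129 isotype cells. Cxcr4 had no such home, since its leading cluster changed with the measure. It was cluster 9 by mean CPM, 16 by share of cells, 4 with cells thinned to equal UMIs and 8 with ICI cells pooled. Cxcr4 was detected in every cluster of ICI library 4 and in every cluster of isotype but cluster 13, at unlike depths. In clusters 1, 4, 6, 7 and 8 it was in 0 to 11.1% of cells in ICI libraries 1 to 3 and in 22.6 to 44.9% in ICI library 4, against 15.6 to 33.3% in isotype. Depth differed as well, with cluster 7 medians of 3403, 3403, 3471.5 and 8726 UMIs in the ICI libraries, against 9932 UMIs. Over all clusters, with cells thinned to equal UMIs, Cxcr4 was in 0.82, 3.13, 2.39 and 4.91% of ICI cells, against 4.43% of isotype cells. The libraries thus lay closer together once thinned.

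**Figure D2:**
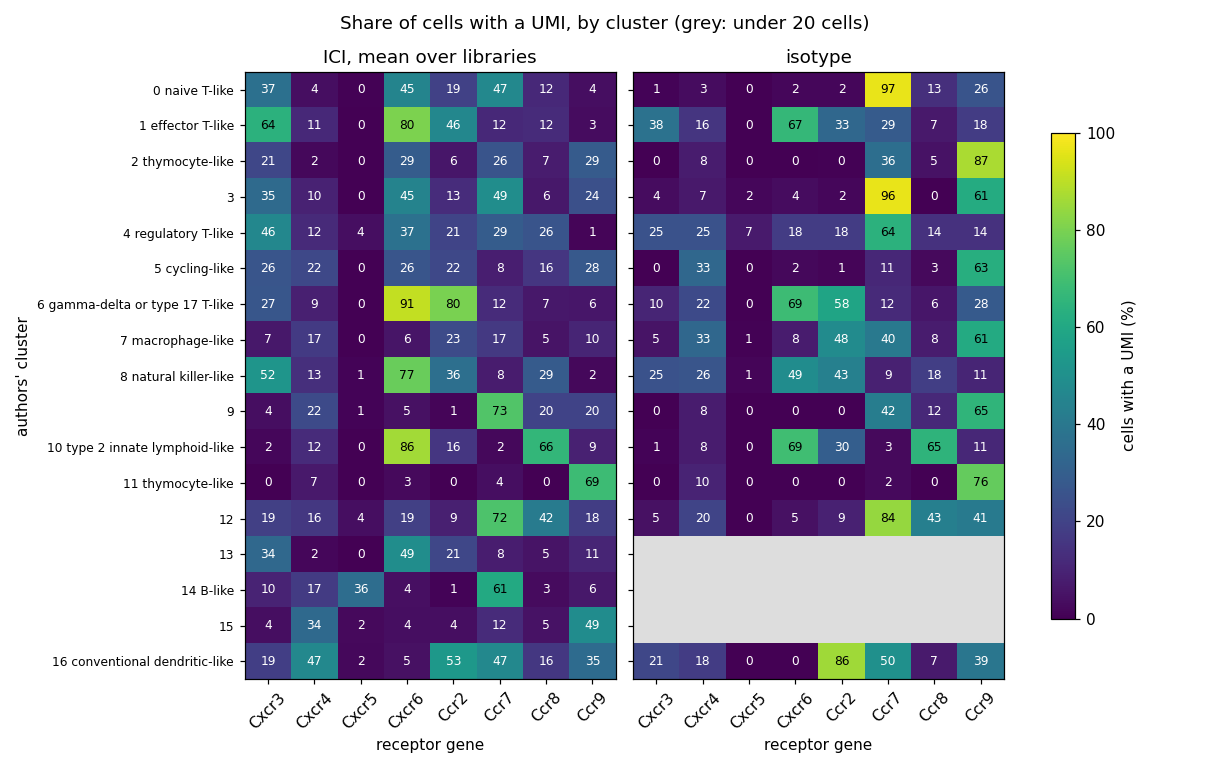
Share of cells with a UMI of each receptor (colour and number, %) in each of the authors' clusters, as the mean over ICI libraries with at least 20 cells (left) and in the isotype library (right). Cxcr6 and Ccr2 are bright in cluster 6, Ccr8 in cluster 10 and Ccr9 in clusters 2 and 11 of isotype; grey marks clusters with under 20 cells.

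Cluster 0 showed that an integrated cluster can hold unlike receptor profiles. Ccr7 was in 73.3, 7.52, 10.5 and 96.2% of its cells in ICI libraries 1 to 4, against 96.6% in isotype. Cxcr6 was in 5.40, 88.0, 86.7 and 0.34%, against 1.68%. Cxcr3 was in 5.40, 69.2, 72.4 and 0%, against 0.84%. Ccr2 was in 1.90, 35.3, 38.1 and 1.47%, against 1.68%. ICI libraries 2 and 3 therefore stood alone, low in Ccr7 and high in the other 3, whereas ICI libraries 1 and 4 and isotype were high in Ccr7. The 7 naive T cell marker genes, which gave this cluster its name, summed to 4071, 716, 524 and 6029 CPM in the ICI libraries, against 3757 CPM in isotype. The 10 effector T cell genes summed to 97.5, 1958, 2664 and 82.7 CPM, against 356 CPM. The name naive T-like therefore goes against the markers in ICI libraries 2 and 3, and the cluster is called by its number here. Clusters 2 and 3 showed the same divide. In cluster 2, the 10 thymocyte genes summed to 2188, 355, 459 and 3094 CPM, against 3704 CPM, with Rag1, Rag2, Dntt and Ptcra among those at 0 in ICI libraries 2 and 3. The name thymocyte-like therefore does not hold for the cluster 2 cells of ICI libraries 2 and 3. In cluster 3, Cxcr6 was in 9.38, 80.0, 76.5 and 12.4% of ICI cells, against 3.51% of isotype cells. The part of depth and of the integration in this divide was not tested.

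**Figure D3:**
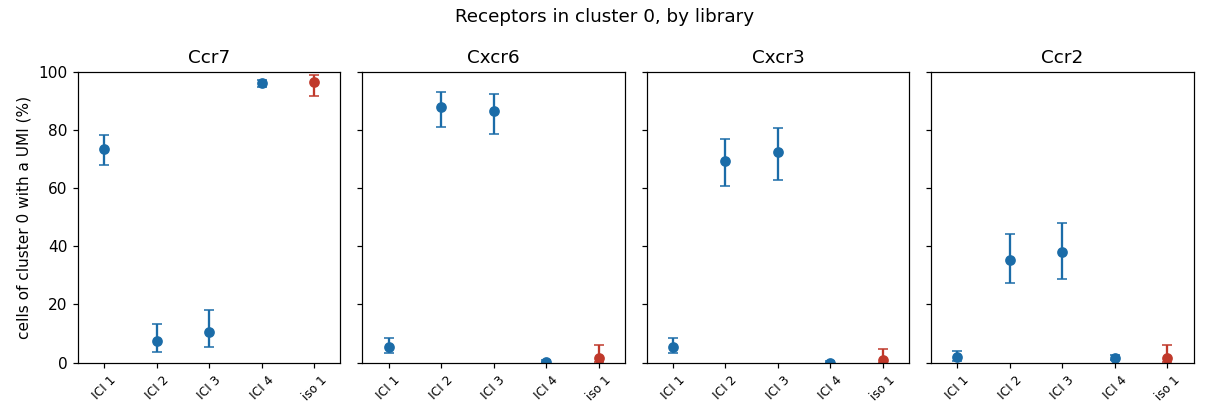
Share of cluster 0 cells (y axis, %) with a UMI of Ccr7, Cxcr6, Cxcr3 and Ccr2 in the ICI libraries (blue) and the isotype library (red, iso 1), with exact 95% intervals for counting error. Ccr7 is at 7.52 and 10.5% in ICI libraries 2 and 3, where Cxcr6 is at 88.0 and 86.7%.

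Pairs of receptors were also counted in single cells, with no test. In cluster 0, Cxcr6 and Ccr7 were both detected in 1.59, 2.26 and 3.81% of the cells of ICI libraries 1 to 3, where the product of their shares is 3.96, 6.61 and 9.08%. In the effector T-like cluster 1 of ICI library 4, both were in 14.2% of 323 cells and the product is 20.4%. In isotype the values lay close, at 17.8% and 19.3% in cluster 1. Cxcr3 and Cxcr6 were both detected in 47.4% of cluster 1 cells of ICI library 1 (product 41.3%) and in 72.5% in ICI library 2 (product 71.0%). In ICI library 4 both were in 24.8% (product 26.2%). Cells of a library share depth, so these are descriptions.

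Between the groups, counts summed per library and cluster were compared in 12 clusters, and 76 receptor tests passed the filter on low counts. None of the 76 passed edgeR's quasi-likelihood test at an adjusted p of 0.05, adjusted over all genes of the cluster; 11 had an unadjusted p under 0.05, 6 of them for Ccr9, and DESeq2 also called none. Over all genes the share with an unadjusted p under 0.05 was 3.75, 6.05, 1.83, 3.06, 5.26, 0.927, 7.25, 8.51 and 2.36% in clusters 0 to 8 and 2.89, 2.09 and 2.97% in clusters 10 to 12. Over all genes, 51 calls were made in these clusters together. Ccr9 was lower in CPM in every ICI library than in isotype in 10 of the 12 clusters, namely clusters 0 to 8 and 12, with 4 ICI libraries compared in each but 3 in cluster 5 and 2 in clusters 11 and 12. Among all genes tested, the share below isotype in every ICI library was 20.8, 19, 14.9, 19.3, 18.1, 16.7, 19.3, 23.6 and 12.3% in clusters 0 to 8 and 34.4% in cluster 12. The share of genes called lower was 0% in clusters 0, 3, 6, 7 and 8, and 0.0107, 0.0341, 0.144, 0.0316 and 0.245% in clusters 1, 2, 4, 5 and 12.

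In cluster 0, Ccr9 had 7.0, 8.0, 10.9 and 29.0 CPM in the ICI libraries, against 158 CPM in isotype. The log2 fold change was -3.33 (SE 0.66, edgeR adjusted p = 0.864). In cluster 8 it had 38.8, 0, 5.8 and 21.1 CPM, against 142 CPM, a log2 fold change of -3.39 (SE 0.75, edgeR adjusted p = 0.9999). In cluster 6 it had 97.4, 15.9, 9.8 and 48.2 CPM, against 206 CPM, a log2 fold change of -2.70 (SE 0.97, edgeR adjusted p = 0.681). In these 3 clusters the highest ICI library lay well under isotype. The fit without ICI library 4 called Ccr9 lower in clusters 0, 2, 6, 7 and 8, with log2 fold changes of -4.32, -2.24, -3.54, -6.40 and -4.45. That fit called many genes, with 0.719, 0.908, 12.5, 4.17 and 3.97% of all genes called lower in these clusters. In cluster 4 the gene was at 0 in ICI libraries 1 to 3 and at 31.3 CPM in library 4, against 137 CPM in isotype (log2 fold change -3.33, SE 1.31). In clusters 10 and 11 the ICI libraries lay on both sides of isotype.

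**Figure D4:**
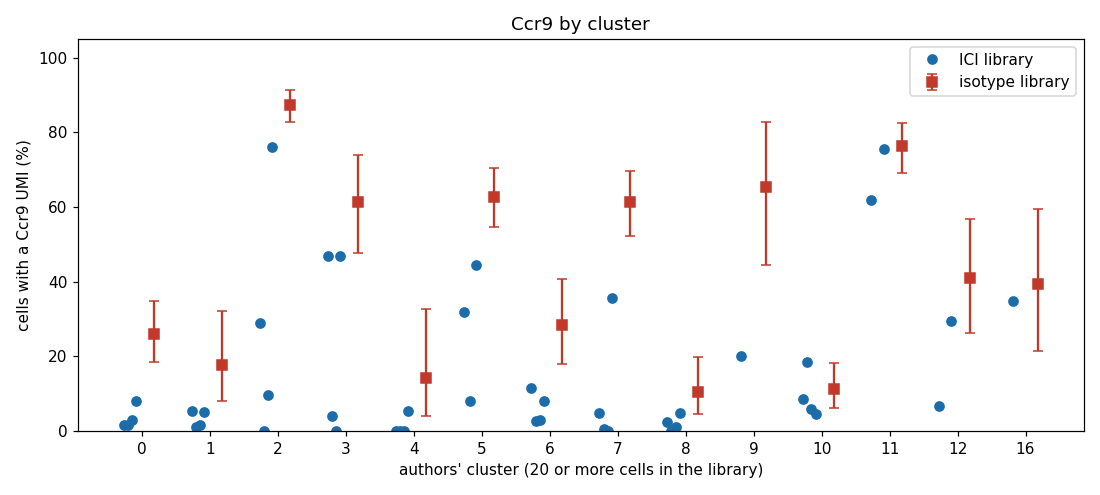
Share of cells with a Ccr9 UMI (y axis, %) by the authors' clusters (x axis), for each ICI library (blue points) and the isotype library (red squares with exact 95% intervals for counting error), where the library had at least 20 cells of the cluster. The isotype share is above every ICI point except in cluster 10, where it is 11.1%.

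Macrophage-like cells, which are no usual source of CCR9, also carried Ccr9 UMIs. In cluster 7 the gene was in 4.81, 0.55, 0 and 35.6% of ICI cells, against 61.2% of isotype cells. In ICI library 4 and isotype, every such cell also had a transcript of T cells, while in ICI libraries 1 and 2 some had none. Among cells with a UMI of Cd3e, Cd3d, Cd3g or Trac, which encode parts of the T cell receptor complex, 4 of 45, 0 of 22, 0 of 27 and 16 of 25 ICI cells had a Ccr9 UMI, against 79 of 95 isotype cells. Among cells with none, 1 of 59, 1 of 159, 0 of 135 and 0 of 20 ICI cells did, against 0 of 34 isotype cells. The isotype shares are 83.2% (exact 95% interval 74.1 to 90.1%) with a T cell transcript, against 0% without, which allows up to 8.82%. The isotype cells with a T cell transcript had a median of 13931 UMIs, against 4924 UMIs in those without. The 10 thymocyte genes summed to 298, 26.6, 32.7 and 571 CPM in cluster 7 of the ICI libraries, against 1793 CPM in isotype. Ccr9 in this cluster thus went with thymocyte transcripts and with depth, and the 3 were not separated. Whether doublets or free RNA gave them was not tested.

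**Figure D5:**
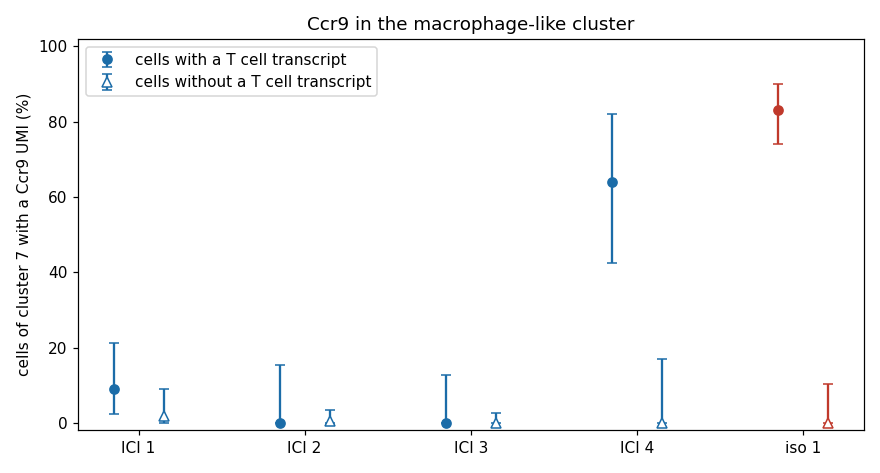
Share of macrophage-like cells of cluster 7 with a Ccr9 UMI (y axis, %), split into cells with (filled circles) and without (open triangles) a T cell transcript, in the ICI libraries (blue) and the isotype library (red, iso 1), with exact 95% intervals for counting error. All 79 Ccr9-positive isotype cells carry a T cell transcript.

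The effector receptors differed less evenly. Cxcr3 had a positive log2 fold change in each of the 10 clusters where it was tested, and Cxcr6 in each of 11. The median over all genes of these clusters ran from -0.009 in cluster 2 to 0.13 in cluster 1. The same libraries feed every cluster, so the clusters are not independent. No share of all genes with a positive value in every cluster was computed. In CPM, Cxcr3 was above isotype in every ICI library in clusters 1, 2, 4, 5 and 12, where 37, 12.5, 32.1, 23.5 and 32.6% of all genes were, and Cxcr6 in clusters 2, 3, 10 and 12, where 12.5, 18.6, 28.2 and 32.6% were. No receptor lay above isotype in every ICI library in clusters 0, 7 and 11, where 26.3, 19.6 and 28.9% of genes did. No gene was called higher in clusters 0 to 8 and 10 (percent called 0), and 0.0467 and 0.188% were in clusters 11 and 12. In cluster 1, Cxcr3 had 616, 676, 648 and 200.01 CPM in the ICI libraries, against 182 CPM in isotype (log2 fold change 1.38, SE 0.70, edgeR adjusted p = 0.797). Its library 4 stood near isotype. In cluster 4 it had 230, 577, 640 and 113 CPM, against 86.4 CPM (log2 fold change 1.92, SE 0.92, edgeR adjusted p = 0.831). Among isotype cells of cluster 2, named from thymocyte genes, 0 of 253 had a Cxcr3 or a Cxcr6 UMI, which allows a share of up to 1.19%. In the same cluster of ICI library 2, 12 and 13 of 20 cells did, and in library 3, 5 and 10 of 21 cells, while library 4 had 2 and 4 of 595 cells.

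Ccr2 lay on different sides of isotype in different clusters, and in none of the 10 where it was tested was its unadjusted p under 0.05. It was above isotype in every ICI library in clusters 1 and 6, where 37 and 29.7% of genes were, and below in clusters 7 and 10, where 23.6 and 7.01% of genes were. In cluster 6 it had 521, 734, 660 and 300.4 CPM in the ICI libraries, against 236 CPM in isotype (log2 fold change 1.03, SE 0.48, edgeR adjusted p = 0.681). Cluster 10 had 61.4, 41.2, 42.2 and 95.9 CPM, against 126 CPM (log2 fold change -1.30, SE 0.56, edgeR adjusted p = 0.985). Ccr8 was above isotype in every ICI library in clusters 1, 2, 4 and 8, where 37, 12.5, 32.1 and 24% of genes were, with log2 fold changes of 1.19 (SE 0.68), 1.07 (SE 0.77), 0.79 (SE 0.72) and 0.64 (SE 0.51). Cxcr4 was below isotype in every ICI library in clusters 6 and 11, where 19.3 and 28.4% of genes were, and Ccr7 in clusters 0 and 12, where 20.8 and 34.4% were. Cxcr5 passed the filter in no cluster.

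The shares were also recomputed with every library given the cluster mix of isotype. Ccr9 was then at 22.2, 9.35, 17.3 and 39.0% in the ICI libraries, against 52.2% in isotype. All ICI libraries stayed below isotype, at the smallest p this design allows (exact permutation p = 0.2, two-sided). Cxcr3 was at 12.6, 43.8, 36.1 and 5.75%, against 5.47%. Cxcr6 was at 27.8, 59.9, 53.4 and 17.3%, against 16.2%, so that library 4 now lay just above isotype. Ccr8 was at 12.5, 15.2, 16.4 and 17.6%, against 12.4%. Ccr7 had 1 of 4 ICI libraries above isotype, as without the weighting. ICI libraries 2 and 3 hold 2 and 1 cells of cluster 11, which has 12.4% of the weight. Over the 9 clusters with at least 20 cells in every library, a choice made after the data were seen, Ccr9 was at 14.5, 3.18, 4.24 and 32.9% in the ICI libraries, against 46.9% in isotype. With that choice Cxcr3 in ICI library 4 (6.52%, against 6.85%) and Ccr8 in ICI library 1 (13.4%, against 15.6%) were below isotype.

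Clusters 1, 4, 6 and 7 were also split by genes outside the receptor set, and 5 of 32 differences had the same sign in the 4 ICI libraries, each with an adjusted p of 0.615 in an exact permutation test. In each of the 4 ICI libraries, Cxcr4 was more often detected in Foxp3-positive than in Foxp3-negative cells of the regulatory T-like cluster 4, with 3.85, 13.6, 14.3 and 28.1% against 0, 3.85, 5.88 and 26.7%. Foxp3 encodes the defining transcription factor of regulatory T cells. The mean difference was 5.87 ± 3.90 percentage points (SD, n = 4; exact two-sided sign-flip permutation, at the smallest p that 4 libraries allow, adjusted p = 0.615 over 32 such comparisons). Cxcr6 was lower in Foxp3-positive cells in the 4 libraries, with a mean difference of -15.2 percentage points, at 13.5, 40.9, 53.6 and 12.04% against 14.8, 76.9, 76.5 and 12.6%. In cluster 7, Cxcr4 was lower in cells with a C1q transcript, a mark of resident macrophages, with 7.58, 5.88, 3.17 and 27.3% against 15.8, 14.3, 27.8 and 56.5% in cells without. Ccr2 was at 13.6, 9.80, 7.94 and 45.5% in cells with C1q, against 23.7, 42.9, 41.7 and 43.5% in cells without, so library 4 departed from the other 3. Cxcr6 in cluster 7 was at 7.58, 4.58, 4.76 and 0% in cells with C1q, against 7.89, 10.7, 8.33 and 8.70% in cells without. In cluster 6, Cxcr3 was at 26.7, 35.3, 38.2 and 16.7% in cells with a UMI of Trdc, a gamma-delta T cell receptor gene, against 12.9, 34.5, 35.1 and 13.2% in cells without, a mean difference of 5.26 ± 5.79 percentage points (SD, n = 4). In cluster 1, no receptor differed in the same direction between CD8 and CD4 cells in all 4 libraries. With each cell thinned to 1000 UMIs, the C1q difference of Ccr2 in cluster 7 was below 0 in all 4 libraries, at -13.5 ± 9.35 percentage points (SD, n = 4). Thinned likewise, the Foxp3 difference of Cxcr4 stayed above 0 in all 4 libraries (4.45 ± 4.54 percentage points), while that of Cxcr6 was above 0 in libraries 1 and 4 and the C1q difference of Cxcr4 was above 0 in library 4. The thinned Trdc difference of Cxcr3 was above 0 in 3 of 4 libraries.

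Across the 17 clusters, the genes whose levels ran most like a receptor's were found from Pearson's r of log2 mean ICI CPM with a pseudocount of 10 CPM. They were Itgb1 (an integrin chain, r = 0.95) and Ptpn4 (0.93) for Cxcr3, Cdc42ep3 (0.93) for Cxcr6, Ahnak and Hip1 (both 0.91) for Ccr2, Zc3h12d (0.87) and Bach2 (0.83) for Ccr7, Jhy (0.94) for Cxcr5, Apol9b (0.82) and Stk39 (0.80) for Ccr8, Gm40841 (0.90) for Ccr9 and Tmem199 (0.69) for Cxcr4. Among the receptors themselves, Cxcr6 and Ccr2 were most alike (r = 0.78), then Cxcr3 and Cxcr6 (0.71). Ccr9 had a negative r with each of the other 7 receptors, from -0.43 with Ccr2 to -0.20 with Ccr7. The points are clusters of the same libraries and share their depth.

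The other genes of the pathway were described from 4 lists. Of 15 other chemokine receptors, 11 were tested over all cells, 9 with a higher and 2 with a lower log2 fold change and none called, with a median of 1.16 beside 0.02 for all genes. Cx3cr1, a receptor of macrophages and cytotoxic cells, had 66.8, 198, 149 and 4.43 CPM in the ICI libraries, against 26.0 CPM in isotype. Of 14 ligand genes, 11 were tested, 5 with a higher and 6 with a lower value (median -1.05) and none called. Ccl2, the ligand gene of CCR2, had 4.97, 7.26, 4.79 and 18.9 CPM in the ICI libraries, against 228 CPM in isotype, a log2 fold change of -4.66 (SE 0.74, edgeR adjusted p = 0.779). Cxcl16, the ligand gene of CXCR6, had 76.5, 207, 154 and 17.9 CPM, against 59.7 CPM. CD45+ cells are only one source of these ligands. Of 18 signalling and desensitisation genes, 10 were higher and 8 lower (median 0.21), and of 14 other homing and egress genes, 12 were higher and 2 lower (median 1.07), with none called in either list. Among them the integrin genes Itga4 and Itgb7, whose products pair to carry lymphocytes to the gut, had log2 fold changes of 1.96 (SE 0.80) and 1.42 (SE 0.59). The signalling regulator Rgs1 had 393, 926, 947 and 266 CPM, against 307 CPM, and in the thymocyte-like cluster 11 it was the only listed gene called in any cluster, at 0 CPM in ICI library 1 and 45.3 CPM in library 4, against 0 CPM in isotype (edgeR adjusted p = 0.0138). That call rests on a single library.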

How the data were processed

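The members and the gene lists were chosen with earlier results of these data known. Cell Ranger, Seurat and the mouse build mm10 are named in the submitters' processing notes. The authors deposited whole-number UMI counts per gene and cell, with a cell table of library, UMI totals and 17 clusters. Per the file headers it also holds the authors' mitochondrial percent, at most 25.0, and cell cycle scores, which were not used. Counts were used as deposited, and no filter on cells or doublet caller was applied here. Clusters were named by hand from how many genes of each marker list were among the 10 leading genes by fold (pseudocount 10 CPM, seen in 20% of cells) or at least 1.5-fold higher than in other cells.

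Counts were summed per library, and per cluster where a library had 20 cells, and compared with edgeR 4.0.16 (R 4.3.3; TMM, filterByExpr, quasi-likelihood, Benjamini-Hochberg over all genes), tested on simulated data. Alternatives were DESeq2 1.42.0, RLE scaling, no filter, other cell minimums, summed or left-out libraries, left-out barcodes and top cells, thinning to 1000 UMIs and another pseudocount. Shares carry exact Clopper-Pearson 95% intervals, and a count of 0 allows 3 counts of the total; both cover counting error only. Levels over clusters were described. Gates needed 10 cells on either side in a library, which a CD8 against CD4 gate in cluster 3 did not reach in any library. Their shares were compared by sign flips and cluster-weighted shares by exact permutation over libraries. All 8 receptors are named, with up to 4 genes of each list by UMI number and any called, and the genes most alike over clusters; some list genes are not reported here. Sequences are from RefSeq, positions from GENCODE M21; 6 of 8 promoters matched.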

Additional observations from a re-analysis of the deposited data

Results flagged for a closer look

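In 4 of 40 groups of 4 ICI libraries examined, a single library stood far from the other 3. It was ICI library 4 each time. The cluster groups were picked because every ICI library lay on one side of isotype. Over all cells, the CPM and the share of a receptor counted as separate groups. The groups are thus neither unselected nor independent, and no rate of chance is given for them. In cluster 1 its Cxcr3 level was 200.01 CPM, with 616 to 676 CPM in the other ICI libraries and 182 CPM in isotype. In the regulatory T-like cluster 4 its Ccr9 level was 31.3 CPM, with 0 CPM in the others and 137 CPM in isotype. In cluster 6 its Cxcr4 level was 45.9 CPM, with 14.7 to 19.9 CPM in the others and 54.1 CPM in isotype. In the macrophage-like cluster 7 its Ccr9 level was 105.2 CPM, with 0 to 9.43 CPM in the others and 274 CPM in isotype. Each time, ICI library 4 was the ICI library nearest to isotype. Since each of these groups lay on one side of isotype, the library far from the others could only be the nearest or the farthest. For Ccr9 in cluster 4, with 0 CPM in the other ICI libraries, any level above 0 would have been flagged.

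Ccr2 lay above isotype in every ICI library in clusters 1 (log2 fold change 1.43, SE 0.64) and 6 (1.03, SE 0.48), which hold T cell genes. It lay below isotype in every ICI library in the macrophage-like cluster 7 (-0.40, SE 0.36) and the type 2 innate lymphoid-like cluster 10 (-1.30, SE 0.56). The difference between these clusters was not tested.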

How the results depend on the processing

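No paired analysis was possible because isotype has 1 library and shares no pairing with the ICI libraries. Over all cells, 38 genes passed with DESeq2 and 0 to 210 with 1 ICI library left out, the 210 without ICI library 4; no receptor passed under any alternative. Within clusters, the 51 gene calls became 202 with no filter, 18 without each gene's highest cell, 24 and 677 with at least 10 and 50 cells, and 27 to 3399 with 1 ICI library left out, the 3399 (5.36% of gene tests, against 0.0615% with all libraries) without library 4. Receptor calls numbered 4 of 92 with no filter, where 0.12% of gene tests were called (Cxcr3 and Cxcr6 in cluster 2, Ccr9 in clusters 4 and 8), 1 of 69 with ICI libraries 1 to 3 summed (Ccr9, cluster 4; 0.0561%), 1 of 45 with at least 50 cells (Ccr9, cluster 7; 1.23%) and 0 to 21 with 1 ICI library left out, the 21 of 62 without library 4: Cxcr3 and Cxcr6 in clusters 2, 5, 6 and 8, Ccr9 in 0, 2, 6, 7 and 8, Ccr2 in 5, 6 and 10, Cxcr4 and Ccr7 in 6 and 8, and Ccr8 in 5. The all-cell fold of Ccr7 turned to 0.27 with ICI libraries 1 to 3 summed. With ICI library 4 alone against isotype, a value with no test, it was 1.09 for Ccr7, 0.30 for Cxcr4, -0.81 for Cxcr6 and -1.29 for Ccr2. Of 417 alternatives over 34 single receptor folds, 379 counted as the same. These kept direction and still did not pass or, where no test was possible, kept direction within 1 SE of the main fold. Another 20 kept direction and passed, 13 without a test moved by 1 SE or more, and 5 reversed direction. The leading cluster held for 5 of 8 receptors by share of cells (7 to 8 with a library left out), moving for Cxcr3, Cxcr4 and Ccr7. Gate differences of 1 sign numbered 5, 2 when thinned, and 6 to 9 with a library left out, with no share over all genes computed. Weighted shares on 1 side of isotype numbered 4 receptors, and 4 to 7 with a library left out, with no share over all genes computed. With only clusters of 20 cells in every library, added after the data were seen, they numbered 3 (Cxcr5, Cxcr6 and Ccr9). The causes were not tested. The single isotype library limits every comparison.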
